A study of Mus musculus with 4 samples.

Results

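Retinoic acid (RA), the vitamin A derivative needed for spermatogonia to differentiate and enter meiosis, acts through nuclear receptors. The genes described here are the 3 RA receptors (RARs; Rara, Rarb and Rarg), their 3 dimer partners the retinoid X receptors (RXRs; Rxra, Rxrb and Rxrg) and 2 co-regulators of nuclear receptors, Nrip1 and Ncor1. They were found in the deposited table by gene symbol, and make up 8 of its 55421 genes. Each symbol matched a gene with counts in every library. The table holds RNA-seq counts from primary cultures of spermatogonia (SSC culture) set up from neonatal testes of CD1 mice.

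There were 2 Veh and 2 NRRA libraries. Veh cultures were kept in complete SSC medium. NRRA cultures received a nutrient restriction medium, in which Earle's balanced salt solution took the place of most of the complete medium, together with RA. The treatment time and the RA dose are not in the labels. The study's methods fix a common time and dose for its NRRA treatments, without naming these libraries. The labels name no genetic change beside the CD1 strain. Both groups were grown with N2, GDNF and bFGF on irradiated embryonic fibroblast (MEF) feeder cells from CF1 mice, whose RNA is also in the libraries. RA was added and the nutrients and growth factors of the medium were diluted at the same time, so their shares in any difference below cannot be told apart. The study describes the replicates of its sequencing experiments as independent biological ones, while the labels do not tie either library of a group to a culture or mouse. The adjusted p-values weigh each difference against the spread between these libraries, estimated with information shared across genes. They speak for other cultures only as far as these libraries are separate cultures.

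As background, RARs bind DNA as heterodimers with RXRs at RA response elements, which are direct repeats of a short hexamer. A heterodimer without ligand holds a corepressor complex built around proteins such as NCOR1, which brings histone deacetylases to the gene. RA binding to the RAR releases that complex and recruits coactivators of the NCOA family and the acetyltransferases EP300 and CREBBP. NRIP1 (RIP140) is unusual in that it binds receptors carrying ligand and represses them. In the testis RARG is the main receptor of spermatogonia, RARA is found in Sertoli cells and in later germ cells, and Rarb is a textbook direct target of RA in many tissues.

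Library totals ranged from 28022265 to 31604769 counts, so a count of 3, used as the floor, came to 0.092 to 0.11 CPM (counts scaled to the effective library size). PCR copies were not marked in these reads, so the floor and the counting intervals of summed counts describe counting error alone, whereas the intervals of log2 fold changes come from edgeR and include the spread between libraries. Pearson's r of log2 CPM across genes was 0.993 between the Veh libraries, 0.994 between the NRRA libraries and 0.958 to 0.959 between groups. In edgeR's quasi-likelihood test with Benjamini-Hochberg adjustment, 20232 genes were tested and 56.4% of them had an adjusted p under 0.05, so that a call by itself was common. Of all tested genes 27.9% were called higher and 28.4% lower in NRRA, and the median absolute log2 fold change was 0.33. A change of at least 2-fold was rarer, with 6.29% of genes higher and 7.02% lower by that limit. The split of the calls depended on scaling. It was 5654 higher to 5752 lower with TMM factors and 6962 to 4593 with library size only, which moved all log2 fold changes up by a median of 0.090. As checks of the RA treatment, Stra8, the RA-induced gatekeeper of meiotic entry, had 261 and 300 counts in Veh against 60702 and 55775 in NRRA, and Cyp26a1, which degrades RA, had 23 and 28 against 8191 and 7760.

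All 8 receptor and co-regulator genes passed the filter on low counts and all 8 were called, 5 higher (Rara, Rarb, Rxrb, Nrip1 and Ncor1) and 3 lower (Rarg, Rxra and Rxrg) in NRRA. In each of them the Veh and NRRA libraries did not overlap in CPM, which was also so for 76.7% of all tested genes. The sizes differed widely. Rarb and Nrip1 rose by more than 2-fold, Rxrg fell by more than 2-fold, and the other 5 changed by between 1.10-fold (Ncor1) and 1.49-fold (Rarg, lower). The directions and calls of all 8 were the same under the other normalizations, the other filters, DESeq2 and without each library in turn, while a test against a 2-fold limit (edgeR's glmTreat) called only Rarb, Nrip1 and Rxrg.

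**Figure D1:**
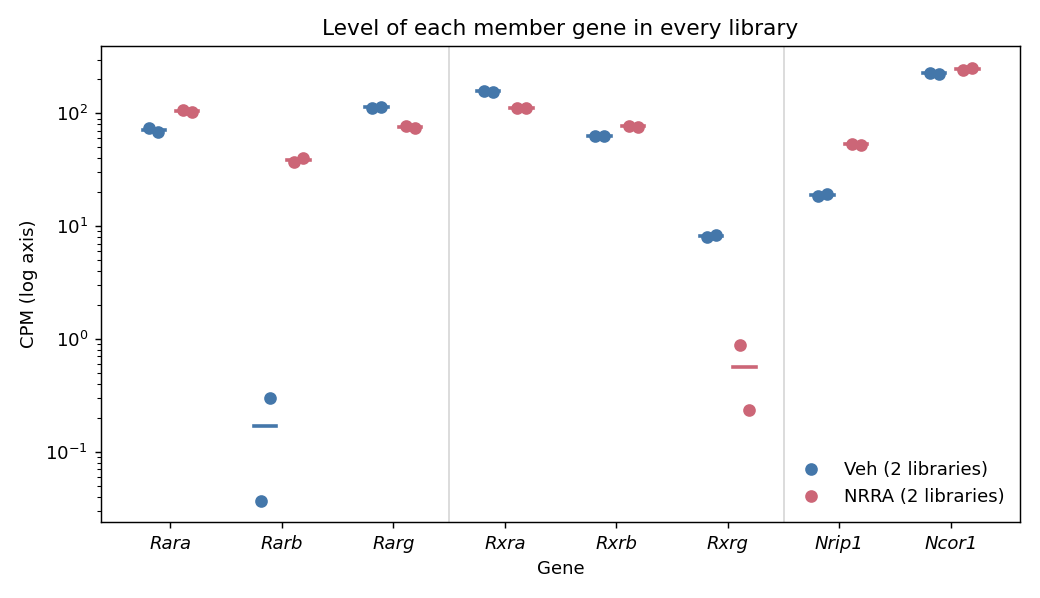
CPM of the 8 genes in each of the 4 libraries on a log axis, with Veh in blue, NRRA in red and a short line at the mean of each group of 2. Rarb lies at 0.0368 and 0.302 CPM in Veh and at 37.2 and 39.9 CPM in NRRA, Rxrg goes the other way, and the remaining 6 genes lie above 18 CPM in every library.

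Rarb, the receptor isotype that RA itself induces in many tissues, showed the largest change of the 8. It had 1 and 9 counts in Veh replicates 1 and 2, and 1212 and 1204 counts in NRRA replicates 1 and 2. Its level was thus next to nothing in both Veh libraries and nearly equal in both NRRA libraries. The mean went from 0.170 ± 0.188 CPM to 38.6 ± 1.96 CPM (SD over 2 libraries, here and below), and the log2 fold change was 7.74 ± 0.19 (SE, edgeR, adjusted p = 1.07e-21). Among the 20232 tested genes it ranked 8 from the top by log2 fold change. Because the Veh counts were so few, the size of the rise is known only roughly. From the summed counts, 10 against 2416, the ratio was 219 with a 95% counting interval of 119 to 458. Leaving out Veh replicate 1 gave a log2 fold change of 6.98, and leaving out Veh replicate 2 gave 9.87.

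Rarb lies on the minus strand of mouse chromosome 14 (chr14:16430839-16819156, GRCm38), and 38.4% of its exonic bases overlap genes on the plus strand, chiefly Top2b, which encodes DNA topoisomerase 2-beta. Without a stated strand setting, reads of the shared bases could have gone to either gene or to neither. Top2b had 1578 and 1726 counts in the Veh libraries, in which Rarb had 1 and 9, and 3273 and 3027 in NRRA. Its log2 fold change was 0.79 ± 0.042 (SE, edgeR, adjusted p = 9.19e-15), well short of that of Rarb.

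The Rarb promoter holds a direct repeat with a spacer of 5 bases (DR5), the arrangement that RAR-RXR heterodimers are known to prefer, and its sequence is shown because Rarb had the largest change of the 8, together with the match in Cyp26a1, the RA-degrading enzyme named above. The hexamer searched was a purine, then G, then G or T, then T, C and A. It was searched on both strands of the RefSeq promoter windows (GRCm38.p6), which run from 250 bases before to 50 bases after each annotated start. The bases before the Rarb start (chr14:16575477-16575726, minus strand, written 5′ to 3′) and the match in the Cyp26a1 window (chr19:37697776-37697792, minus strand, opposite to the gene) read as follows, with the repeated hexamers in capitals.
Rarb, bases before the start: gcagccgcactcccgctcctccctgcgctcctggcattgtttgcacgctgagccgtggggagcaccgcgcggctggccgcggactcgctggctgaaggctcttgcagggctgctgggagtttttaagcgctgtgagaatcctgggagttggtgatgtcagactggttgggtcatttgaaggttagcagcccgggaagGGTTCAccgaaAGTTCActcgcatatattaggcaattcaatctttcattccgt
Rarb DR5: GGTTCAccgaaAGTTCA
Cyp26a1 DR5: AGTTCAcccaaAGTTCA

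The Rarb match lies 53 to 37 bases before the RefSeq start (chr14:16575513-16575529), and that start lies inside the longer GENCODE gene model. The Cyp26a1 match lies 32 to 16 bases before its start. A DR5 was found in 32 of the 32851 windows (0.0974%). The 8 genes had 17 windows, and of these only the Rarb window held one. A direct repeat with a spacer of 1 base (DR1, 0.222% of windows) or of 2 bases (DR2, 0.268%) was found in no window of the 8 genes. The 3 motifs share the hexamer and differ only in spacing. A match in letters describes the sequence and not binding, and its absence from a window says nothing of elements elsewhere.

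Rara and Rarg, the isotypes that were already well expressed in Veh, changed in opposite directions. Rara (chr11:98927818-98974942) had 2007 and 2052 counts in Veh against 3516 and 3132 in NRRA, so both NRRA libraries were higher. Its mean rose from 71.4 ± 3.56 CPM to 105.9 ± 2.77 CPM, with a log2 fold change of 0.57 ± 0.043 (SE, 95% interval 0.48 to 0.66, edgeR, adjusted p = 1.10e-11). Rarg (chr15:102234938-102257517), which encodes the RAR known for its role in spermatogonia, had 3048 and 3377 counts in Veh against 2516 and 2237 in NRRA. Both NRRA libraries were lower, although the library totals of the groups overlapped. Its mean fell from 112.8 ± 0.785 CPM to 75.7 ± 2.08 CPM, with a log2 fold change of -0.58 ± 0.039 (95% interval -0.66 to -0.49, adjusted p = 1.83e-12).

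Among the RXRs, which serve as partners for many other nuclear receptors as well as the RARs, Rxra fell, Rxrb rose and Rxrg nearly disappeared. Rxrg (chr1:167598384-167639623), the isotype known mostly from muscle and nervous tissue, had 219 and 248 counts in Veh against 29 and 7 in NRRA. Its 2 Veh libraries lay close together, while NRRA replicate 1 was about 4 times as high as NRRA replicate 2. The mean went from 8.20 ± 0.184 CPM to 0.561 ± 0.465 CPM. The log2 fold change was -3.83 ± 0.26 (SE, edgeR, adjusted p = 1.26e-12), or 14.2-fold lower, and ranked 90 from the bottom of all tested genes. The summed counts, 467 against 36, gave a ratio of 14.3 with a 95% counting interval of 10.2 to 20.7. Leaving out NRRA replicate 1 gave a log2 fold change of -5.11, and leaving out NRRA replicate 2 gave -3.20.

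Rxra (chr2:27676440-27762957), the broadly expressed RXR, had 4287 and 4654 counts in Veh against 3646 and 3397 in NRRA. It fell from 157.1 ± 1.17 CPM to 112.3 ± 0.629 CPM, a log2 fold change of -0.48 ± 0.034 (95% interval -0.55 to -0.41, adjusted p = 2.56e-12). Rxrb (chr17:34031812-34038399), known for the Sertoli cell phenotype of its knockout, had 1699 and 1866 counts in Veh against 2540 and 2298 in NRRA. It rose from 62.6 ± 0.0485 CPM to 77.1 ± 1.17 CPM, a log2 fold change of 0.30 ± 0.044 (95% interval 0.21 to 0.39, adjusted p = 1.79e-06). Both changes were smaller than 2-fold, and both exceeded the spread between the libraries of a group.

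**Figure D2:**
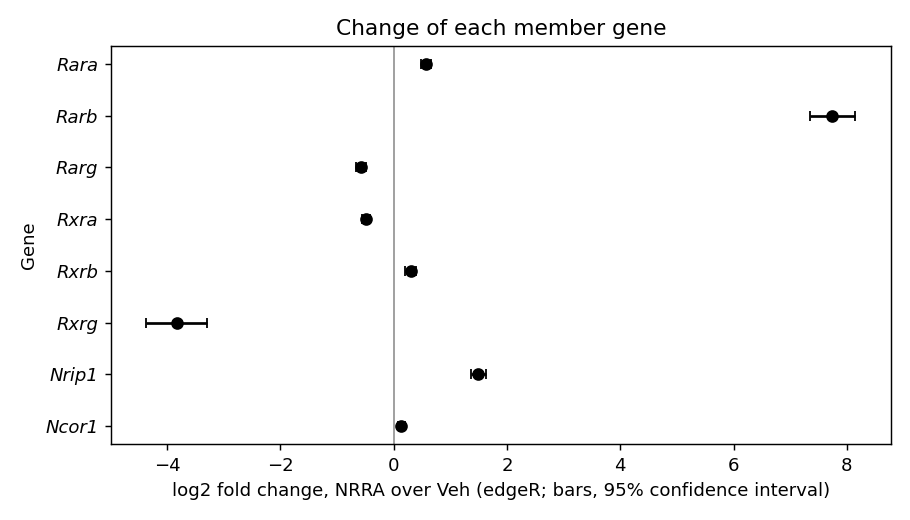
Log2 fold change of each gene, NRRA over Veh, from edgeR, with bars for the 95% confidence interval. Rarb at 7.74 and Rxrg at -3.83 stand far from 0 with the widest intervals, Nrip1 lies at 1.50, and the other 5 genes lie between -0.58 and 0.57 with intervals that do not reach 0.

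The 2 co-regulators both rose, by very different amounts. Nrip1 (chr16:76287400-76373827), the ligand-dependent repressor, had 506 and 571 counts in Veh against 1757 and 1590 in NRRA, so each NRRA library was well above both Veh libraries. Its mean went from 18.9 ± 0.377 CPM to 53.3 ± 0.800 CPM, a 2.82-fold rise with a log2 fold change of 1.50 ± 0.062 (95% interval 1.37 to 1.62, edgeR, adjusted p = 5.47e-17). Ncor1 (chr11:62316426-62458541), the scaffold of the corepressor complex of receptors without ligand, had 6168 and 6713 counts in Veh against 7942 and 7681 in NRRA. Its mean went from 226.3 ± 1.28 CPM to 249.2 ± 7.97 CPM, a 1.10-fold rise with a log2 fold change of 0.14 ± 0.030 (95% interval 0.078 to 0.20, adjusted p = 2.45e-04). The Ncor1 change was the smallest of the 8 and below the median absolute change of all tested genes. Its log2 fold change was 0.23 with library size only.

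To compare levels between genes, CPM was divided by the length of the union of each gene's exons. In Veh the order from high to low was Rxra (28.8 ± 0.214 CPM per kilobase), Rarg (26.5 ± 0.184), Ncor1 (17.7 ± 0.0998), Rara (16.4 ± 0.815), Rxrb (15.8 ± 0.0122), Rxrg (3.57 ± 0.0800), Nrip1 (1.65 ± 0.0329) and Rarb (0.0322 ± 0.0356). Rara and Rxrb differed by less than the SD of Rara, which had 16.9 and 15.8 CPM per kilobase against 15.8 in both libraries for Rxrb. In NRRA the order on the same scale was Rara (24.3 ± 0.634), Rxra (20.6 ± 0.115), Ncor1 (19.5 ± 0.622), Rxrb (19.4 ± 0.294), Rarg (17.8 ± 0.488), Rarb (7.32 ± 0.373), Nrip1 (4.65 ± 0.0698) and Rxrg (0.244 ± 0.202). There Ncor1 and Rxrb could not be ordered, with 19.0 and 19.9 CPM per kilobase for Ncor1 against 19.6 and 19.2 for Rxrb. Rara thus stood below Rarg in Veh and first of all 8 in NRRA. With the length of the longest transcript in place of the union of exons, a choice made after seeing the data, Rara was again first in NRRA (31.3) and below Rarg in Veh (21.1 to 38.2), but other places changed. In Veh, Rarg stood above Rxra (32.0), and Rxrb (23.8) above Rara. In NRRA, Rxra (22.9) went from the second to the fifth place, below Rxrb (29.3), Ncor1 (27.6) and Rarg (25.6).

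Within the RAR family, the isotypes changed places. The share of Rarg in the summed CPM per kilobase of the 3 RAR genes was 60.9% and 62.7% in the Veh libraries, against 36.3% and 35.7% in the NRRA libraries. Rara held 39.1% and 37.2% in Veh and 49.5% and 48.8% in NRRA. Rarb went from 0.0162% and 0.135% to 14.2% and 15.5%. No share overlapped between the groups. The sum of the 3 RARs itself moved little by comparison, from 42.9 ± 0.595 to 49.3 ± 0.750 CPM per kilobase, or 1.15 times. An exact permutation test over 2 against 2 libraries cannot give a p below 0.333, the value reached here for every share and ratio.

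Within the RXR family, the share of Rxra was 60.0% and 59.6% in Veh and 50.6% and 51.7% in NRRA, and that of Rxrb 32.7% and 32.9% in Veh and 48.5% and 48.1% in NRRA. The share of Rxrg was 7.29% and 7.55% in Veh and 0.957% and 0.253% in NRRA. The sum of the 3 RXRs went from 48.1 ± 0.122 to 40.2 ± 0.381 CPM per kilobase, or 0.836 times. Shares depend on the length used. With the length of the longest transcript, Rxrb held 55.9% and Rxra 43.6% in NRRA, so which of them was the more abundant in NRRA cannot be said, whereas Rxra was above Rxrb in Veh with either length (53.6% to 39.9% with the longest transcript). Rarg was above Rara in Veh and below it in NRRA with each length tried.

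**Figure D3:**
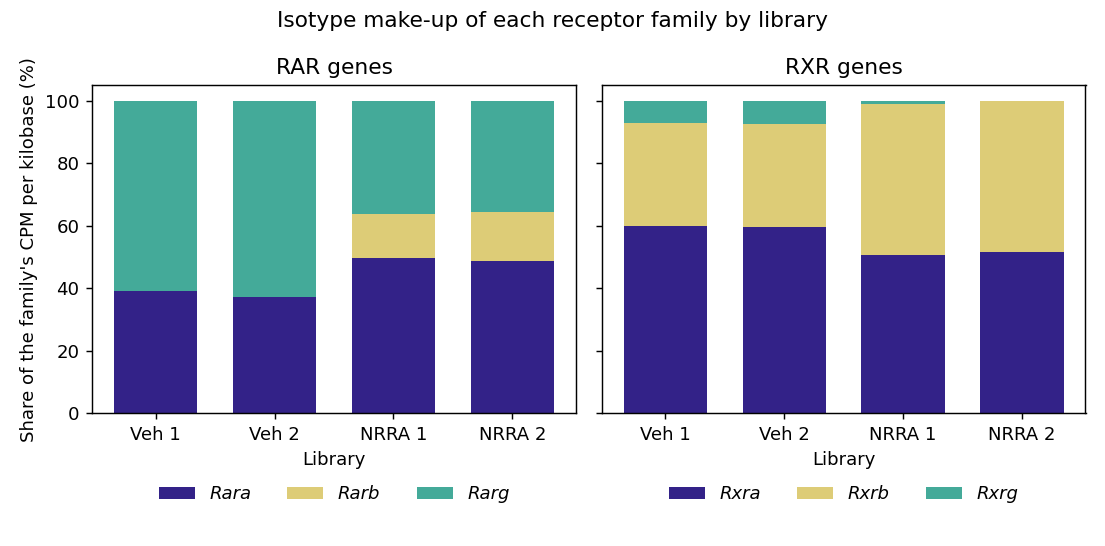
Stacked shares, in percent, of the 3 RAR genes and of the 3 RXR genes in the summed CPM per kilobase of each family, 1 bar for each library. Rarg takes over 60% of the RAR bars in Veh and about 36% in NRRA, where a Rarb segment of about 15% appears, and Rxrg shrinks to under 1% of the RXR bars in NRRA while Rxra and Rxrb come close to each other.

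Ratios of isotypes within a library do not depend on the scaling between libraries. On the log2 scale the ratio of Rara to Rarg, per kilobase, was -0.64 and -0.75 in the Veh libraries and 0.45 in both NRRA libraries, a difference of 1.14. The ratio of Rxra to Rxrb was 0.88 and 0.86 in Veh and 0.062 and 0.10 in NRRA, a difference of -0.78. The ratio of the RAR sum to the RXR sum was 0.899 and 0.884 on the linear scale in Veh and 1.23 and 1.22 in NRRA. With the longest transcript as length the Veh libraries stood at 1.00 and 0.987 and each NRRA library at 1.32. The RAR genes together were thus more abundant than the RXR genes in NRRA with either length, while in Veh they were less abundant with the union of exons and about equal with the longest transcript. The libraries of the groups did not overlap in any of the 3 ratios.

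The genes that work with the receptors were read from 4 lists. The calls in these and in the marker lists below stand beside 27.9% higher and 28.4% lower over all tested genes. Of 16 genes of corepressor complexes, all tested, 8 were called higher, 6 lower and 2 (Tbl1x and Ctbp1) were not called, with a median log2 fold change of 0.085 beside 0.00029 over all tested genes. Hdac7, a class IIa histone deacetylase, fell from 7871 and 7831 counts to 2016 and 1861 (log2 fold change -2.16), and Ctbp2, a corepressor that NRIP1 is known to bind, fell by 0.93 on the log2 scale. Hdac9, another class IIa deacetylase, rose from 137 and 138 counts to 346 and 357 (1.21). Gps2, a core subunit of the NCOR complex, rose by 0.63 on the log2 scale, and Lcor, a ligand-dependent corepressor like Nrip1, by 0.47.

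Other subunits of the NCOR complex changed less. Tbl1xr1, a subunit needed for exchange of corepressors, had a log2 fold change of -0.49 and Hdac3, its deacetylase, one of 0.11. The Hdac3 call was lost with DESeq2 (adjusted p = 0.13) and without Veh replicate 2 (0.094, edgeR, adjusted p = 0.097), NRRA replicate 1 (0.12, adjusted p = 0.066) or NRRA replicate 2 (0.098, adjusted p = 0.13). The Sin3a call, at -0.095, was lost without NRRA replicate 1 (-0.070, adjusted p = 0.090) and with library size only (-0.0054), a scaling with which Tbl1x was called higher (0.15, edgeR, adjusted p = 0.0011).

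Of 15 coactivator genes, 7 were called higher and 7 lower, and Ppargc1a was not called (median log2 fold change 0.16). Ncoa1 (SRC-1), a founding member of the p160 coactivators, rose from 253 and 277 counts to 747 and 744 (1.35 ± 0.090, SE, edgeR), while the other p160 genes, Ncoa2 and Ncoa3, rose by only 0.16 and 0.33 on the log2 scale. Per kilobase, Ncoa1 remained the lowest of the 3 in NRRA at 2.78 CPM, well below Ncoa3 at 32.3. Ncoa7 rose by 0.58 and Crebbp, a histone acetyltransferase, by 0.35 on the log2 scale, whereas its paralogue Ep300 fell by 0.16. Ppargc1b fell from 86 and 90 counts to 22 and 18 (-2.27 ± 0.28), the acetyltransferase gene Kat2b by 1.03 and the arginine methyltransferase gene Prmt1 by 0.50. Ppargc1a, at 0.82, was called without Veh replicate 1 (1.37, adjusted p = 0.045).

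**Figure D4:**
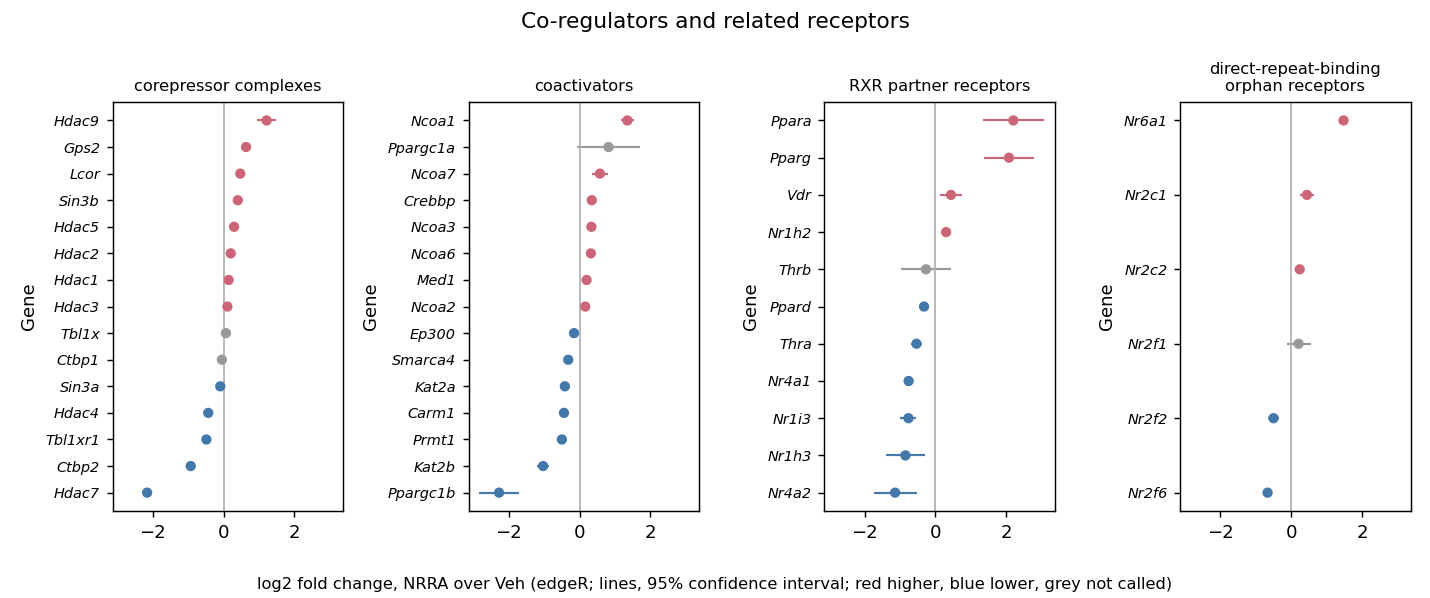
Log2 fold change, NRRA over Veh, of tested genes of 4 lists (1 corepressor gene is not shown), with lines for the 95% confidence interval (edgeR) and red, blue and grey for called higher, called lower and not called. Each list spreads to both sides of 0, with Hdac7 at -2.16 and Hdac9 at 1.21 at the ends of the corepressor list, and Ppargc1b at -2.27 and Ncoa1 at 1.35 at those of the coactivators.

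Of 13 receptors that pair with RXR, 11 were tested (not Nr1h4 and Nr1i2), of which 4 were called higher and 6 lower, and Thrb was not called (median -0.32). Levels within the list differed widely, from 0.282 CPM (Ppara) to 88.1 CPM (Nr1h2) among the tested genes in Veh. Pparg, the fat cell regulator, rose from 10 and 19 counts to 60 and 75 (2.08 ± 0.34), Nr1h2 (LXR-beta) by 0.30 and the vitamin D receptor gene Vdr by 0.44. The Vdr call was lost with DESeq2 (adjusted p = 0.11) and without Veh replicate 1 (0.25, edgeR, adjusted p = 0.21) or NRRA replicate 1 (0.36, adjusted p = 0.079). Nr4a2, an orphan receptor, fell by 1.14 on the log2 scale, Nr1h3 (LXR-alpha) by 0.85 and Nr1i3 by 0.76. The Nr1h3 call was lost with DESeq2 (adjusted p = 0.12), without Veh replicate 2 (-0.70, adjusted p = 0.080) and without NRRA replicate 1 (-0.66, adjusted p = 0.091). Of the exonic bases of Nr1i3, 74.9% overlap Tomm40l, so its value is uncertain.

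Of 6 orphan receptors that bind direct repeats and can compete for such sites, 3 were called higher and 2 lower, and Nr2f1 was not called (median 0.22). Nr6a1 (GCNF), a repressor known for its expression in germ cells, rose from 1338 and 1482 counts to 4490 and 4161 (1.48 ± 0.040, SE, edgeR). The testicular receptor genes Nr2c1 and Nr2c2 rose by 0.44 and 0.24 on the log2 scale. Nr2f6 fell by 0.67 and Nr2f2 (COUP-TFII) by 0.50. For Nr2f6, 54.4% of the exonic bases overlap Ocel1, and for Nr2c2 31.2% overlap other genes.

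The libraries hold more than 1 cell type, and fewer cells of a type cannot be told apart from less RNA per cell in such samples. Of 12 germ cell markers, all tested, 4 were called higher and 7 lower, and the pan-germ cell gene Ddx4 was not called. Their summed CPM was 3039 and 3083 in Veh and 2318 and 2305 in NRRA, and the list did not move as a whole. Id4 (-3.32), Ret (-2.82), Zbtb16 (-2.43), Etv5 (-1.97) and Gfra1 (-1.38), which are known from undifferentiated spermatogonia, fell on the log2 scale. Sall4 (0.84), which is known from the same cells, rose, as did Sohlh1 (0.94), Tex15 (0.66) and Dazl (0.16, edgeR, adjusted p = 0.045). Tex101 (-0.18) and Mael (-0.15) fell slightly. Of 14 fibroblast markers of the feeder, 3 were called higher, 10 lower and Postn was not called, with a median log2 fold change of -0.20, and their sum was 3426 and 3394 CPM in Veh and 3108 and 2962 in NRRA. Individual fibroblast genes ran from -1.43 (Lum) to 3.73 (Fap) on the log2 scale. The part of cell type or cell state in the receptor changes was not tested. The Sertoli genes Amh, Fshr and Rhox5 and the Leydig gene Hsd3b1 were at or under 3 counts in every library. Other genes of these lists were present. The Sertoli gene Sox9 had 735 and 874 counts in Veh against 304 and 284 in NRRA (log2 fold change -1.59). Wt1 had 178 and 233 against 189 and 182, and the Leydig gene Star had 189 and 214 against 286 and 264. The remaining genes of both lists had at most 22 counts in any library. The summed levels of the other marker lists were below those of the germ cell and fibroblast lists, which hold more genes. For 7 Sertoli genes the sum was 34.4 and 37.8 CPM in Veh and 16.1 and 16.6 in NRRA. For 5 Leydig genes it was 7.51 to 9.57 in all libraries. The 2 peritubular genes summed to 86.2 and 98.4 CPM in Veh against 62.5 and 70.1 in NRRA. Most of this was Acta2, with a mean of 88.1 CPM in Veh and 64.0 in NRRA. The sum was 32.7 and 34.7 against 27.4 and 26.4 for 3 macrophage genes. For 2 endothelial genes it was 9.98 and 10.4 against 3.96 and 3.42.

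The genes with the pattern most like each of the 8 were found by the root mean square distance of centred log2 CPM over the 4 libraries, among 20231 other tested genes. With 2 groups of 2 such a distance mostly compares the sizes of the changes. No gene came within 0.1 of Rarb, whose nearest were Stra8 (distance 0.626), Cyp26a1 (0.635) and Cacng6 (0.924), nor within 0.1 of Rxrg, whose nearest included Gad1 (0.121) and Kcne1 (0.263). The pattern of Nrip1 was shared more often, with 102 genes within 0.1, the nearest being Nr6a1 (0.0175), Arhgef10 (0.0205) and Prss23os (0.0220). For the 5 with smaller changes the number within 0.1 was 1152 for Rara, 1308 for Rarg, 1787 for Rxra, 3015 for Rxrb and 4034 for Ncor1. Their nearest genes were Jrk, 2310010J17Rik and Tex16 for Rara, Gas6, Slc38a7 and Llph for Rarg, Psmd12, Ppp1ca and Fn1 for Rxra, Camk2n1, BC034090 and Por for Rxrb, and Aurkb, Gcfc2 and Sec24d for Ncor1.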

How the data were processed

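The authors deposited raw read counts per gene (whole numbers, not normalized) for the 4 libraries. Per the labels, the submitters' processing notes name bcl2fastq, STAR 2.6.1c, featureCounts 1.6.4 and the mm10 build. The annotation release and strand setting are not given in the sources used here. The labels name an Illumina TruSeq kit and the study's methods a stranded Tecan kit, so whether reads of opposite-strand genes were told apart is unknown.

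Groups and replicate numbers came from the sample titles. Columns were matched by the descriptions, in which the Veh libraries carry the next higher number. Counts were filtered with filterByExpr, scaled with TMM and tested with edgeR 4.0.16 in R 4.3.3 (quasi-likelihood F test, robust, NRRA against Veh, Benjamini-Hochberg adjustment over 20232 genes, threshold 0.05). The SE was derived from the F statistic. CPM was scaled by library size times TMM factor, with a prior count of 2 for log2 values. The sums of a list's CPM include its untested genes. DESeq2 1.42.0 served as an alternative. The edgeR script was first tested on simulated data.

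Gene positions and exonic lengths came from GENCODE M21 (GRCm38), in which 55154 of the 55421 identifiers were found, and near-identical stretches from BLAST 2.17.0 (at least 95% identity over at least 100 bases). None was found for the 8 genes outside the Top2b overlap of Rarb. Promoter windows came from RefSeq, and all 8 genes matched by symbol.

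The text names the 8 genes, Stra8 and Cyp26a1, the 3 genes nearest in pattern to each, and in each list the 3 largest rises and falls among called genes with a mean of at least 1 CPM. Genes named beside these were chosen after their values were seen. Of the genes this rule names, 2 are not reported here. The genes and lists were chosen with earlier results of these data known.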

Additional observations from a re-analysis of the deposited data

How the results depend on the processing

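The log2 fold changes of the 8 genes all stayed called in the same direction with DESeq2, other size factors, library size only, other filters, non-robust estimation and without each library. Without each library in turn they ran from 6.98 to 9.87 for Rarb, -5.11 to -3.20 for Rxrg, 0.52 to 0.62 for Rara, -0.60 to -0.55 for Rarg, -0.49 to -0.47 for Rxra, 0.29 to 0.31 for Rxrb, 1.48 to 1.52 for Nrip1 and 0.11 to 0.18 for Ncor1, for which the adjusted p reached 0.0195 (edgeR). In these fits the lone library of a group is assumed to vary like the others. Replicate numbers did not pair the libraries (correlation of deviations -0.0106). A fit with a replicate block gave 7.75 for Rarb, -3.84 for Rxrg and 0.57 for Rara, changed no call of the 8 and moved the calls of all genes to 5772 higher and 5836 lower.

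A test against a 2-fold limit (glmTreat) did not call Rara (0.57), Rarg (-0.58), Rxra (-0.48), Rxrb (0.30) or Ncor1 (0.14), by the construction of that test. It left 2 of the 8 genes higher and 1 lower, 0 and 2 corepressor genes, 1 and 1 coactivators, 2 and 0 RXR partners, 1 and 0 orphan receptors, and 602 and 793 of all genes. Without the fold limit the same edgeR fits called 8 corepressor genes higher, 6 RXR partners lower and 2 orphan receptors lower. With the longest transcript as length, the shares in Veh and NRRA were 35.5% and 45.1% for Rara, 64.4% and 37.0% for Rarg, 53.6% and 43.6% for Rxra and 39.9% and 55.9% for Rxrb, with 17.9% for Rarb in NRRA and 6.50% for Rxrg in Veh. With only exonic bases outside other genes, the NRRA shares were 45% for Rara, 22.1% for Rarb and 33.0% for Rarg. The ratio of the RAR sum to the RXR sum, 0.891 in Veh and 1.23 in NRRA, became 0.994 and 1.32 with the longest transcript, and 1.34 in NRRA with exonic bases outside other genes, both chosen after seeing the data. With library size only, the corepressor calls split 9 to 5, against 8 to 6 with TMM, and Ctbp1, which was not called, changed sign to 0.041. The few counts of Rarb in Veh and of Rxrg in NRRA limit how well the size of either change is known.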

Other observations

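Of the 13037 tested genes with a RefSeq promoter window, 9 held a DR5 in it. By edgeR's adjusted p, 4 of the 9 were called higher in NRRA, each by at least 2-fold, and 5 were not called. Among all tested genes with a window 31.7% were called higher, and 6.41% by at least 2-fold. For the other spacings searched, 11 of 43 tested genes with a DR1 were called higher (25.6%) and 10 lower, with 3 higher by at least 2-fold, and 6 of 17 with a DR2 were called higher (35.3%) and 3 lower, with 2 higher by at least 2-fold. Rarb and Cyp26a1, known RA targets, are among the 9 DR5 genes. Besides Rarb and Cyp26a1, 2 of the other 7 genes were higher. Blvrb, which encodes a biliverdin reductase, went from 381 and 436 counts in Veh to 1092 and 1045 in NRRA (log2 fold change 1.25 ± 0.074, SE, adjusted p = 9.59e-14). Prokr2, a prokineticin receptor gene, had 17 and 8 counts in Veh against 35 and 32 in NRRA (1.27 ± 0.43, adjusted p = 0.013). The genes not called were Tnfsf13b, Cfap45, Ppbp, Gm1043 and Syndig1, with log2 fold changes between -1.07 and 0.55. These names were chosen after their values were seen, and with 9 genes no share is known with any precision.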
